A study of Mus musculus with 25 samples.

Results

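The 8 genes described here encode the NF-E2 subunit Nfe2, its relatives Nfe2l1 and Nfe2l2, the small Maf proteins Mafk, Mafg and Maff, and the repressors Bach1 and Bach2. They were chosen by name out of 22208 protein-coding genes. An entry of a location list was placed at a gene when it lay in the gene body or within 50 kb of it, which gave 339 of 166131 entries. None of the 8 windows overlapped another, so each entry belonged to 1 of these genes.

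GATA1 and TAL1 binding was mapped by ChIP-exo, in which an exonuclease trims immunoprecipitated DNA up to the protein-DNA cross-link, in mouse erythroid cells of strain 129. G1E-ER4 cells, in which Gata1 is restored in a form that estradiol activates, gave 3, 3 and 3 GATA1 libraries and 5, 3 and 3 TAL1 libraries at 0, 3 and 24 h of estradiol, with a dose of 10 nM in the labels at 3 and 24 h, lower than the concentration in the study's methods. G1E cells, the Gata1- erythroid progenitor line, gave 1 GATA1 library and 4 TAL1 libraries. Each factor has a list of peak pairs (peaks of read ends on opposite strands), a list of MultiGPS locations (events called by a model of the read distribution), and a list of final locations, which are MultiGPS locations with a peak pair within 100 bp.

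The entries are positions of 1 base in mm9, pooled over libraries, with no score, read count, time point or replicate. No spread between libraries, no estradiol response and no test between conditions can therefore be had, and the cell type could not be checked against marker expression. The depth of the libraries is not in the lists and was not analysed here. Shares below carry exact (Clopper-Pearson) 95% intervals, which cover counting error only and treat neighbouring locations as independent, although these can share a motif or a peak pair.

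NF-E2 is a dimer of a cap'n'collar (CNC) basic leucine zipper protein with a small Maf protein, and it is known for its binding at the globin locus control regions in erythroid cells. The same small Mafs pair with NRF1 and NRF2, which activate proteasome and antioxidant genes, and with BACH1 and BACH2, which repress through the same kind of element. BACH1 binds heme and then leaves DNA, which links this network to hemoglobin production. GATA1 binds WGATAA, and TAL1 binds E-boxes together with an E protein and is often found in a complex with GATA1.

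Final GATA1 locations lay at 7 of the 8 genes, against 42.7% of all protein-coding genes, and final TAL1 locations also lay at 7, against 40.3%. Both factors were found at 6 of the 8 genes, against 33.6% of all genes. Within 10 kb of the gene body, 5 genes had a GATA1 location, against 23.9% of all genes, and 5 had a TAL1 location, against 21.3%. The median was 3.0 final locations per gene for either factor, against 0.0 over all genes, whose upper quartile was 2.0. Per 100 kb of window the medians were 2.45 for GATA1 and 2.51 for TAL1 at the 8 genes, and the upper quartiles over all genes were 0.99 and 1.33. The genes were not drawn at random, so these counts describe them and were not tested.

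In the final lists the 8 genes held 24 of 10290 GATA1 locations and 34 of 15209 TAL1 locations. Bach1 had the most GATA1 locations with 7, followed by Nfe2, Nfe2l2 and Mafk with 4 each, Maff and Bach2 with 2 each, Nfe2l1 with 1 and Mafg with 0. For TAL1 the order was another one. Nfe2 had 12 locations and Mafk 9, so that these genes together held 21 of the 34, followed by Bach1 with 4, Nfe2l2 and Maff with 3 each, Bach2 with 2, Mafg with 1 and Nfe2l1 with 0. Without replicates, the order of genes with neighbouring counts was not tested, and it turned with the setting. Within 100 kb Mafk had 27 TAL1 locations and Nfe2 17. With peak pairs merged within 40 bp, GATA1 had 17 positions at Nfe2 and 16 at Bach1, and TAL1 had 17 at either of Nfe2 and Mafk.

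**Figure D1:**
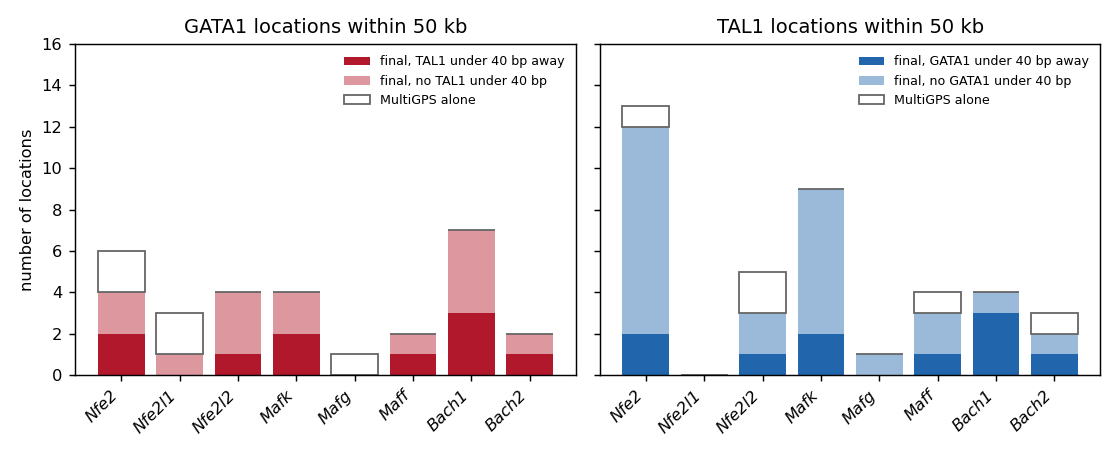
Number of GATA1 (left) and TAL1 (right) locations in or within 50 kb of each gene, split into final locations with the other factor under 40 bp away (dark), other final locations (light) and MultiGPS locations without a peak pair (open). At this distance TAL1 counts peak at Nfe2 with 12 and Mafk with 9, and GATA1 counts at Bach1 with 7, whereas within 100 kb Mafk exceeded Nfe2 in TAL1, and with merged peak pairs Nfe2 exceeded Bach1 in GATA1.

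Nfe2 encodes the large, erythroid subunit of NF-E2 and lies at chr15:103078643-103088834 on the minus strand (ENSMUSG00000058794.6). It had 4 final GATA1 locations, 6 MultiGPS locations and 24 peak pairs, and 12, 13 and 39 of these for TAL1. Of all genes, 97.9% had fewer final TAL1 locations and 90.6% had fewer final GATA1 locations. All 12 TAL1 locations were in homotypic clusters, meaning under 500 bp from another location of the same factor.

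The larger cluster held 8 TAL1 locations over 502 bp, at chr15:103088805-103089307, running from 29 bp inside the gene to 473 bp upstream of its 5′ end. Only 126 of 2906 TAL1 clusters (4.34%) had as many locations or more. A single GATA1 location fell inside it, at 103088985, 151 bp upstream of the 5′ end, and the nearest TAL1 location was 7 bp away. The cluster and 200 bp on either side held 20 TAL1 and 7 GATA1 peak pairs, but 1 WGATAA site. Thus 1 of the 8 TAL1 locations had WGATAA within 40 bp.

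The smaller cluster held 4 TAL1 locations over 219 bp in an intron, 6473 to 6692 bp into the gene and 24 to 243 bp upstream of 1 of the 10 annotated Nfe2 start sites. Its GATA1 location, 103082232, was called at the same base as a TAL1 location. The other GATA1 locations lay 1445 bp into the gene in an intron (103087389) and 874 bp past the 3′ end (103077769), and had no final TAL1 location within 1 kb. The GATA1 MultiGPS locations without a peak pair lay in introns of the neighbours Cbx5 (103047804) and Copz1 (103111895). All 4 final GATA1 locations of Nfe2 had WGATAA within 40 bp.

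The sequences below show the places where both factors were called at Nfe2, and the TAL1 location closest to an Nfe2 start site. Throughout, sequences are from the mm9 reference genome, not from the 129 cells, and are written 5′ to 3′ on the strand given. Capitals mark AGATAA or TGATAA on either strand (WGATAA, read as TTATCT or TTATCA on the other strand), TG whose end lies 7 or 8 bp upstream of such a site (CA on the other strand), and the NF-E2 core TGANTCA, with TGC before it where present (the longer NF-E2 element). In windows without WGATAA they also mark the E-boxes CAGATG and CAGCTG, which read CATCTG and CAGCTG on the other strand. A match is a description of the letters and not evidence of a bound site.
Nfe2 intron, GATA1 and TAL1 at the same base (chr15:103082192-103082272, plus strand): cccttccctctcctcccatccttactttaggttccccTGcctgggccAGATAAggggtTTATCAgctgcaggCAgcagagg
Nfe2 upstream, GATA1 and TAL1 7 bp apart (chr15:103088945-103089025, minus strand): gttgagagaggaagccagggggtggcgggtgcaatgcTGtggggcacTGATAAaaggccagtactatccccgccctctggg
Nfe2 intron, TAL1 closest to a start (chr15:103082119-103082182, plus strand): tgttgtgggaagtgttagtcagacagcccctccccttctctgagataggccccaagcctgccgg

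Both cooccupied places of Nfe2 held TG 8 bp upstream of WGATAA. In the intron the WGATAA sites stand on opposite strands, each with TG 8 bp upstream, and the second of them overlaps a CAGCTG that is left in part in lower case. The third window was cut back at an annotated UTR and held neither WGATAA nor these E-boxes.

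Nfe2l1 encodes NRF1, an activator of proteasome genes, and lies at chr11:96678728-96691282 on the minus strand (ENSMUSG00000038615.10). It had 1 final GATA1 location, at 96692367, 1085 bp upstream of a start site, and 0 final TAL1 locations. The TAL1 lists held 0 MultiGPS locations and 1 peak pair within 50 kb, so TAL1 binding was not detected as a final location there, which does not show that it is absent. Of its 3 GATA1 MultiGPS locations, those without a peak pair lay in introns of Nfe2l1 (96687410) and of its neighbour Cbx1 (96667232). The GATA1 location held both forms of WGATAA on the same strand and rested on 1 peak pair.
Nfe2l1 upstream, GATA1 alone (chr11:96692327-96692407, plus strand): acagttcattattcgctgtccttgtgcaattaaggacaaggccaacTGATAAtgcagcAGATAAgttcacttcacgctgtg

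Nfe2l2 encodes NRF2, the activator of antioxidant genes, and lies at chr2:75513570-75542698 on the minus strand (ENSMUSG00000015839.6). It had 4 final GATA1 locations, 4 MultiGPS locations and 17 peak pairs, and 3, 5 and 15 for TAL1. The 3 TAL1 locations, at 75543060, 75543118 and 75543216, formed a cluster of 156 bp, 362 to 518 bp upstream of the 5′ end, with 12 TAL1 and 6 GATA1 peak pairs in it and 200 bp on either side. Of all TAL1 clusters, 54.6% were as large or larger. The GATA1 location at 75543156, 458 bp upstream, rested on 5 peak pairs and had no WGATAA within 40 bp, and the nearest TAL1 location was 38 bp away.

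The other GATA1 locations of Nfe2l2 lay farther out. A pair 282 bp apart stood 27220 and 27502 bp upstream, outside protein-coding genes, and the outer of them (75570200) had AGATAA with TG 8 bp upstream. TAL1 had no final location there, but had a MultiGPS location without a peak pair 40 bp from the outer one. The last, 75519859, lay in an Nfe2l2 intron, although the start of Hnrnpa3, 19313 bp away, was closer than an Nfe2l2 start.
Nfe2l2 upstream, GATA1 with TAL1 38 bp away (chr2:75543116-75543196, plus strand): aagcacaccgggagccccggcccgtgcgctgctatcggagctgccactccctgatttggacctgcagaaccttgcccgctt
Nfe2l2 upstream, TAL1 closest to the start (chr2:75543020-75543100, plus strand): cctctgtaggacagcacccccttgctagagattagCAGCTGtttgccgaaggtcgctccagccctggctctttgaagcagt

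These neighbouring windows 362 and 458 bp upstream of Nfe2l2 held no WGATAA, and the TAL1 window held CAGCTG. The TAL1 location 75543216 of the same cluster had AGATAA within 40 bp, on the minus strand at 75543196-75543201. That site begins at the last base of the GATA1 window and so was not counted for the GATA1 location.

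**Figure D2:**
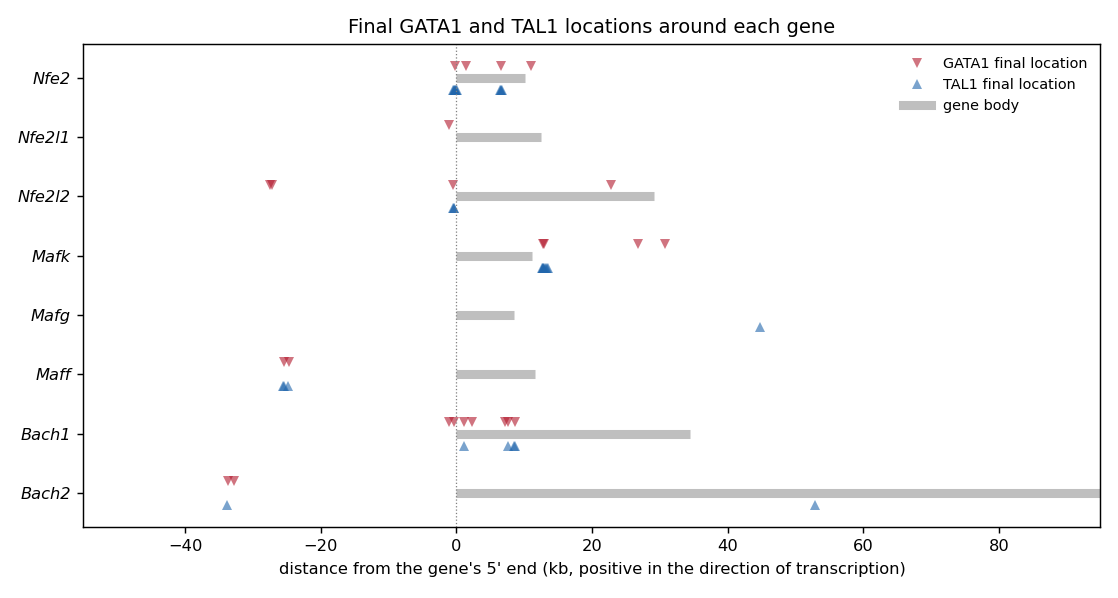
Position of final GATA1 locations (red, above) and TAL1 locations (blue, below) along each gene in kb from its 5′ end, positive in the direction of transcription, with the gene body in grey and Bach2 cut off at the right. TAL1 locations of Nfe2 sit at its 5′ end and 6473 to 6692 bp into the gene, and those of both factors sit in or just before the 5′ part of Bach1, past the 3′ end of Mafk, and at 24705 to 33775 bp upstream at Maff and Bach2, apart from a TAL1 location in a Bach2 intron.

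Mafk encodes a small Maf, a partner subunit that binds DNA but lacks an activation domain, and lies at chr5:140267467-140278607 on the plus strand (ENSMUSG00000018143.4). It had 4 final GATA1 locations, 4 MultiGPS locations and 18 peak pairs, and 9, 9 and 23 for TAL1. All 9 TAL1 locations stood in 1 cluster of 901 bp at chr5:140280059-140280960. Only 83 of 2906 TAL1 clusters (2.86%) had as many locations or more. The cluster began 1452 bp past the 3′ end of Mafk and lay in an annotated UTR of the neighbouring gene Tmem184a, whose start site was 2974 to 3875 bp away. By closest start site it would count for Tmem184a and not for Mafk.

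Inside this cluster 2 GATA1 locations stood 59 bp apart, at 140280277 and 140280336, with 8 and 7 peak pairs within 100 bp. These were the most peak pairs of any GATA1 location at the 8 genes, and the maximum elsewhere in the GATA1 list was 8. Most of the pairs were counted for both locations, since 9 GATA1 peak pairs lay within 100 bp of the span they cover. The TAL1 location 140280308 lay between these GATA1 locations, 31 bp from the first and 28 bp from the second. Another TAL1 location, 140280244, stood 33 bp from the first. The cluster with 200 bp on either side held 17 TAL1 peak pairs, 12 GATA1 peak pairs and 3 WGATAA sites. The other GATA1 locations, 140294186 and 140298230, lay 1685 and 2359 bp from a Tmem184a start site and had no final TAL1 location within 10 kb. TAL1 peak pairs without a MultiGPS location lay 110 bp from the first and 123 bp from the second.

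The Mafk windows are limited to 30 bp because they lie in an annotated UTR. They show the WGATAA at each GATA1 location, on opposite strands, and the TAL1 location at the edge of the cluster, which held none of the motifs.
Mafk downstream, GATA1 with TAL1 31 bp away (chr5:140280267-140280296, plus strand): ctgccagtcccagaagtcAGATAAgtaggt
Mafk downstream, GATA1 with TAL1 28 bp away (chr5:140280331-140280360, minus strand): tccctgagccctctgggcTGATAAgatagg
Mafk downstream, TAL1 closest to the start (chr5:140280045-140280074, plus strand): gcccaggagcctactttgtatctggacttg

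Mafg, the small Maf gene at chr11:120486431-120494914 on the minus strand (ENSMUSG00000051510.7), had 0 final GATA1 locations and 1 final TAL1 location. The GATA1 lists held 1 MultiGPS location, in a UTR of Arhgdia, and 3 peak pairs. The TAL1 location, 120450066, lay 36365 bp past the 3′ end of Mafg and 6905 bp from a start of Thoc4. A GATA1 peak pair lay 5 bp from it, without a GATA1 MultiGPS location. Its window held AGATAA with TG 8 bp upstream. At Mafg itself, a TAL1 peak pair without a MultiGPS location lay 81 bp upstream of a start site (120491543).
Mafg downstream, TAL1 with a GATA1 peak pair 5 bp away (chr11:120450026-120450106, plus strand): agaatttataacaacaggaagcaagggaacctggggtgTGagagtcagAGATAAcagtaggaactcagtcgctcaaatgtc

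Maff, the remaining small Maf gene, is known to be induced by stress and inflammation and lies at chr15:79177971-79189502 on the plus strand (ENSMUSG00000042622.7). It had 2 final GATA1 and 3 final TAL1 locations, all in an intron of Pla2g6, 24705 to 25585 bp upstream of Maff and 730 to 1610 bp from a Pla2g6 start. The TAL1 locations were 79152386, 79152532 and 79153152, and the GATA1 locations 79152504 and 79153266. The GATA1 location 79152504 stood 28 bp from a TAL1 location. Neither GATA1 location of Maff had WGATAA within 40 bp, and 2 of its 3 TAL1 locations had CAGATG or CAGCTG. The TAL1 location 79152532 also had AGATAA, on the minus strand at 79152565-79152570.
Maff upstream, GATA1 with TAL1 28 bp away (chr15:79152464-79152544, plus strand): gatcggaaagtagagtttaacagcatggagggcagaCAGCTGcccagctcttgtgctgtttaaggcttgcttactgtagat
Maff upstream, GATA1 closest to the start (chr15:79153226-79153306, plus strand): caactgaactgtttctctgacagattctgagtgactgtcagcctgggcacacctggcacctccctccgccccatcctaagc

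**Figure D3:**
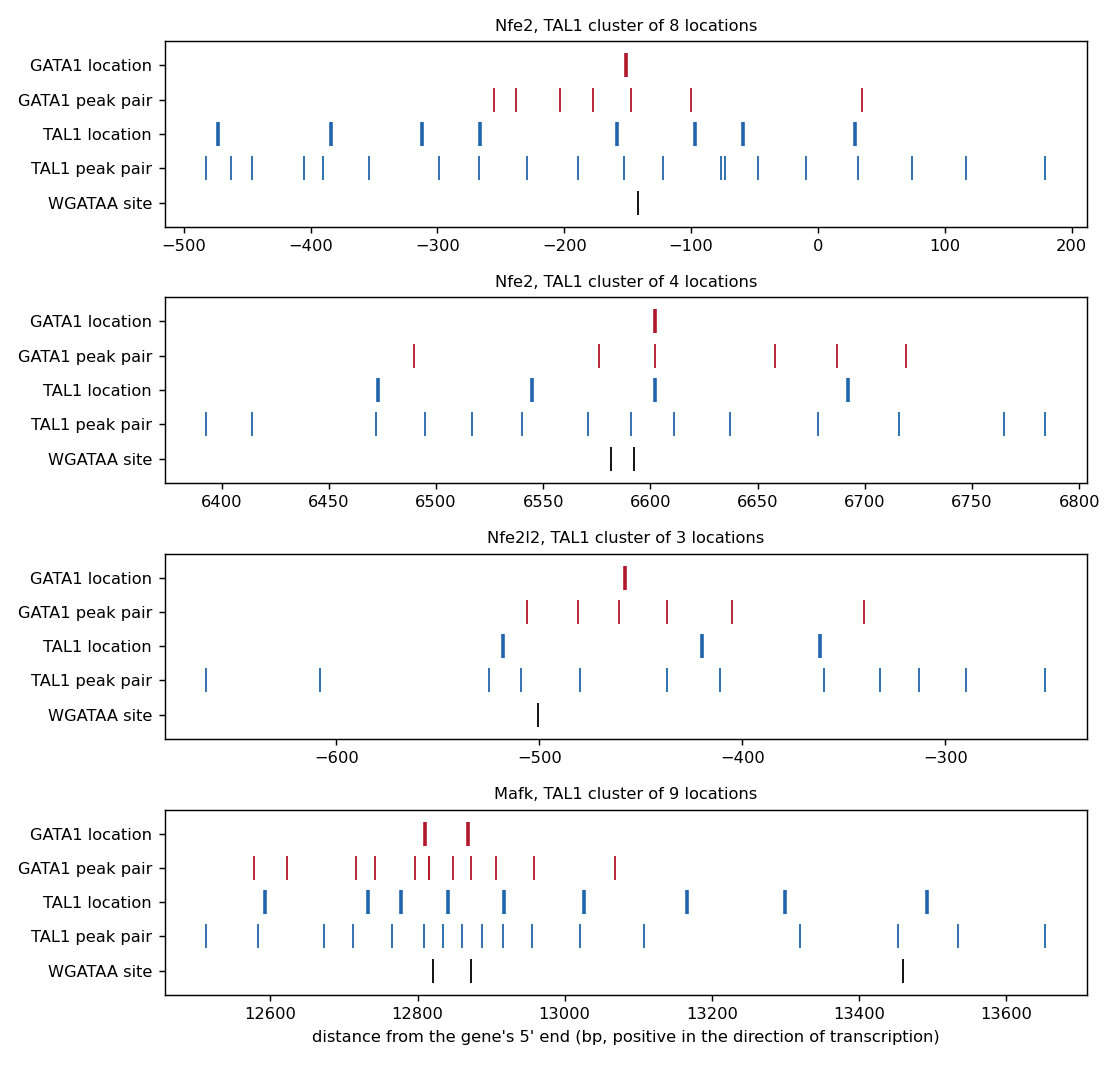
Final locations, peak pairs and WGATAA sites of the 4 TAL1 clusters with at least 3 locations and 200 bp on either side, in bp from the 5′ end of the gene (positive in the direction of transcription). TAL1 locations and pairs spread over each cluster, whereas WGATAA sites number 1, 2, 1 and 3 from top to bottom.

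Bach1 encodes the heme-regulated repressor and lies at chr16:87699190-87733591 on the plus strand (ENSMUSG00000025612.5). It had 7 final GATA1 locations, 7 MultiGPS locations and 16 peak pairs, and 4, 4 and 15 for TAL1, and 97.9% of genes had fewer final GATA1 locations. All its final locations were within 10 kb. The GATA1 locations at 87698098 and 87698810 stood 1092 and 380 bp upstream of the 5′ end, each with WGATAA and with no final TAL1 location within 1 kb. A TAL1 peak pair without a MultiGPS location, 87697917, lay 181 and 893 bp from them. The remaining 5 GATA1 locations, at 87700373, 87701452, 87706330, 87706737 and 87707784, were in introns. So were all 4 final TAL1 locations, at 87700378, 87706750, 87707619 and 87707805.

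At 3 of these intronic places the factors were cooccupied, 5, 13 and 21 bp apart. For the GATA1 location of the last, 87707784, the only GATA1 peak pair within 100 bp lay 95 bp away. WGATAA was found at 6 of the 7 GATA1 locations. The exception was 87700373, 1124 bp downstream of a start site, where the window held TGCTGAGTCA, the element bound by NF-E2 and BACH1 with a small Maf, and CAGCTG. This was the only location of either factor at the 8 genes with TGANTCA within 40 bp on either strand, counted once for each factor. Among all other locations 3.03% of GATA1 and 2.87% of TAL1 locations held TGANTCA, and 0.429% and 0.376% held the longer element.

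The Bach1 windows show this element and the cooccupied intronic sites with WGATAA.
Bach1 intron, GATA1 with TAL1 5 bp away (chr16:87700333-87700413, plus strand): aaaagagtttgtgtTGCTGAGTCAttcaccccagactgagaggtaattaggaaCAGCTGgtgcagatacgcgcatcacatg
Bach1 intron, GATA1 with TAL1 13 bp away (chr16:87706697-87706777, plus strand): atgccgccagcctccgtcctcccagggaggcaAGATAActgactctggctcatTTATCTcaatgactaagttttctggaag
Bach1 intron, GATA1 with TAL1 21 bp away (chr16:87707744-87707824, plus strand): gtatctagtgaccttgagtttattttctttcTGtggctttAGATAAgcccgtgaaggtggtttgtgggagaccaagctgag

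Although Bach1 had the most GATA1 locations, most of them rested on 1 peak pair. More than a single GATA1 peak pair within 100 bp was found for 1 of its 7 GATA1 locations, against 3 of 4 at Nfe2, 3 of 4 at Nfe2l2, 4 of 4 at Mafk, 1 of 2 at Maff, 1 of 2 at Bach2 and 0 of 1 at Nfe2l1. Over the 8 genes this was 13 of 24 (54.2%, interval 32.8 to 74.4%), against 59.9% of other GATA1 locations. The number of peak pairs is not a read count.

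Bach2 encodes the related repressor known from B and T lymphocytes and spans chr4:32325779-32673083 on the plus strand (ENSMUSG00000040270.9), 347305 bp. It had 2 final GATA1 and 2 final TAL1 locations. Because the window is long this came to 0.45 per 100 kb for each factor, the lowest density of any of the 8 genes that had a location of that factor. The GATA1 location 32292038, 33741 bp upstream, rested on 5 peak pairs, stood 34 bp from the TAL1 location 32292004, and had WGATAA on both strands. The GATA1 location 32292989, 32790 bp upstream, had a TAL1 MultiGPS location without a peak pair 14 bp away. The remaining TAL1 location, 32378693, was in a Bach2 intron, 43954 bp from a start site, with AGATAA and TG 7 bp upstream.
Bach2 upstream, GATA1 with TAL1 34 bp away (chr4:32291998-32292078, plus strand): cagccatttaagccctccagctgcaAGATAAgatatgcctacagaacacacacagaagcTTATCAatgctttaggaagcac
Bach2 upstream, GATA1 closest to the start (chr4:32292949-32293029, minus strand): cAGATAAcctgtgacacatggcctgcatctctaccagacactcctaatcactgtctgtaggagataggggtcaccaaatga

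The 8 genes thus fell into different layouts. Within 1 kb of an own start site lay 4 of the 24 GATA1 and 15 of the 34 TAL1 locations, and within 10 kb 15 and 28. Of the TAL1 locations within 1 kb, 12 were at Nfe2, which has 10 annotated start sites, and 3 at Nfe2l2. The GATA1 locations within 1 kb were at Nfe2, Nfe2l2 and Bach1. The same shares were not counted for other locations, so these counts are a description only. The closest start of any protein-coding gene was the gene's own for 17 GATA1 and 21 TAL1 locations. In gene bodies lay 8 GATA1 locations, all in introns, and 10 TAL1 locations, 9 of them in introns. Counted by closest start, TAL1 locations remained at 4 genes instead of 7, and GATA1 locations at 5 instead of 7. Mafk, Mafg and Maff then had 0 locations of either factor. The share of all genes with a location was not counted by closest start.

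**Figure D4:**
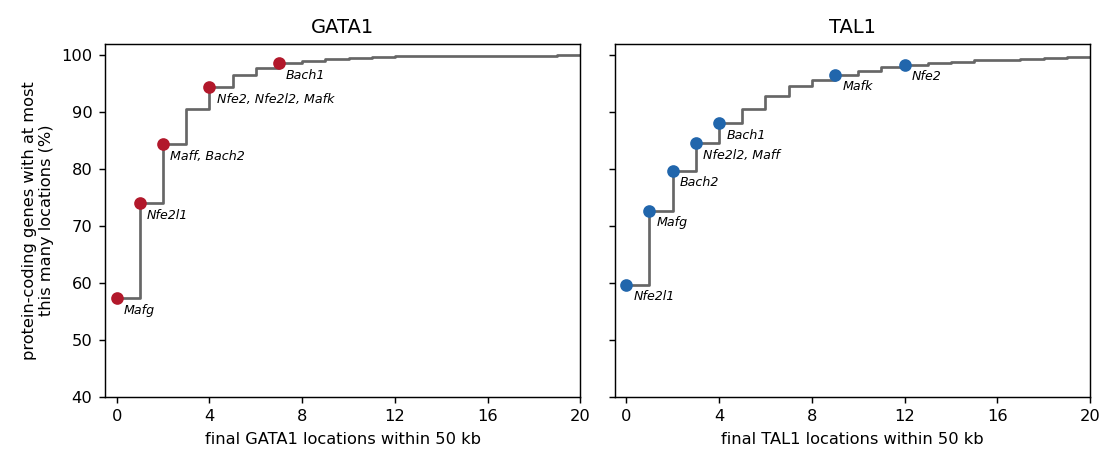
Share of the 22208 protein-coding genes with at most the given number of final GATA1 (left) or TAL1 (right) locations within 50 kb, as a grey step line on an axis that starts at 40%, with the 8 genes as dots at their own counts. Bach1 stands farthest right for GATA1 with 7 locations, and Nfe2 for TAL1 with 12.

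Cooccupied locations, with GATA1 and TAL1 under 40 bp apart, were present at 6 of the 8 genes, against 23.6% of all genes. Each list pools libraries and time points, and the TAL1 libraries include G1E cells. A cooccupied call therefore does not show both factors bound at the same time or in the same cells. Of the GATA1 locations at the 8 genes 10 of 24 were cooccupied (41.7%, interval 22.1 to 63.4%), against 35.9% of 10266 other GATA1 locations. Of the TAL1 locations 10 of 34 were (29.4%, interval 15.1 to 47.5%), against 27.5% of 15175 others. The intervals include the values elsewhere. With a limit of 20 bp, 4 GATA1 locations were cooccupied, at Nfe2 and Bach1.

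Homotypic clusters held 28 of the 34 TAL1 locations (82.4%, interval 65.5 to 93.2%), against 64.4% of other TAL1 locations (interval 63.6 to 65.1%). At Nfe2 and Mafk all 21 TAL1 locations were clustered. At the other genes 7 of 13 were (53.8%). Locations of a cluster are clustered together by definition, so the interval for the 34, which counts them as independent, is too narrow. GATA1 locations were clustered in 6 of 24 cases (25%, interval 9.77 to 46.7%), against 13.7% elsewhere. They formed pairs at Nfe2l2, Mafk and Bach1, and the intervals of the 8 genes and of the other GATA1 locations overlapped. The count was 2 of 24 under 250 bp and 12 of 24 under 1000 bp. The share elsewhere was counted under 500 bp only, so it cannot be set beside these counts.

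WGATAA lay within 40 bp of 17 of 24 GATA1 locations (70.8%, interval 48.9 to 87.4%), against 66.5% of other GATA1 locations. Windows moved by 1 kb either way held it in 5 of 48 cases (10.4%) at the 8 genes and in 8.32% elsewhere. For TAL1 it was 12 of 34 (35.3%, interval 19.7 to 53.5%), against 46% elsewhere, with 8.82% and 8.23% in moved windows. TAL1 locations in clusters of 3 or more had WGATAA in 6 of 24 cases (25%, interval 9.77 to 46.7%) at the 8 genes and in 36.8% of 7132 cases elsewhere. The remaining TAL1 locations had it in 6 of 10 cases (60%, interval 26.2 to 87.8%) and in 54.1% of 8043 cases elsewhere.

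The E-boxes CAGATG and CAGCTG, on either strand, were within 40 bp of 4 GATA1 locations (16.7%, against 17.2% elsewhere) and 8 TAL1 locations (23.5%, against 21.7% elsewhere). TG 7 or 8 bp upstream of WGATAA was present at 4 of the 17 GATA1 locations with WGATAA (23.5%, interval 6.81 to 49.9%), against 32.9% elsewhere. These were both cooccupied places of Nfe2, the Bach1 location 87707784 and the Nfe2l2 location 75570200. Of the 12 TAL1 locations with WGATAA, 6 had it (50%, interval 21.1 to 78.9%), against 54.5% elsewhere. The intervals at the 8 genes include the share elsewhere for each of these motifs.

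**Figure D5:**
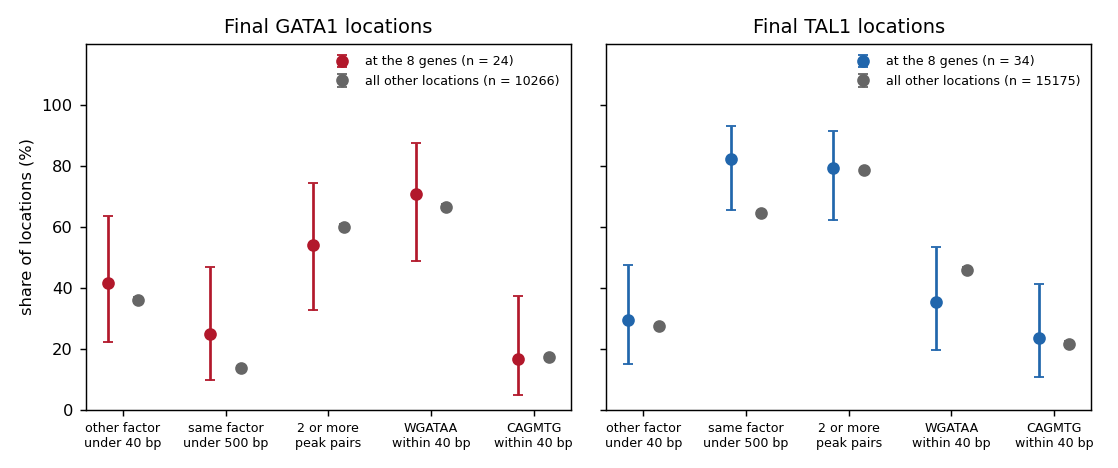
Share (%) of final GATA1 (left) and TAL1 (right) locations with the other factor under 40 bp away, with a neighbour of the same factor under 500 bp away, with 2 or more own peak pairs, with WGATAA and with CAGATG or CAGCTG, for the 8 genes (colour) and all other locations (grey), with exact 95% intervals. The share of clustered TAL1 locations, 82.4% at the 8 genes and 64.4% elsewhere, is the one whose intervals do not overlap. These intervals count the locations of a cluster as independent, and 21 of the 28 clustered ones were at Nfe2 and Mafk. At the other genes 7 of 13 (53.8%) were clustered.

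The side of WGATAA on which TAL1 lay was read at the 7 cooccupied GATA1 locations with that motif, of which 3 held a site on each strand. At the 4 locations with a single site, TAL1 was upstream of it, on the side where TG was counted, in 1 case and downstream in 3. Elsewhere TAL1 was upstream in 68.5% of 1986 such cases, which the interval of 1 in 4 (0.631 to 80.6%) includes. This restriction was chosen after seeing the data. Upstream of Nfe2 TAL1 stood 16.5 bp upstream of the centre of the site, at Mafk 20.5 and 31.5 bp downstream of the sites on either side of it, and at the Bach1 location 87707784 18.5 bp downstream. Both Mafk cases read the same TAL1 location, 140280308, so they are not independent. Only the nearest TAL1 location was read. At the GATA1 location 140280277 it was 31 bp away, while another, 140280244, was 33 bp away and lay upstream of the WGATAA site. Where a site stood on each strand the reading depended on the site. In the Nfe2 intron TAL1 was 9.5 bp upstream of the plus-strand site and 20.5 bp downstream of the minus-strand site, and at Bach2 21.5 bp upstream and 55.5 bp downstream. At the Bach1 location 87706737 it was downstream of both sites, by 18.5 and 2.5 bp. With the site that had TG 7 or 8 bp upstream, or otherwise the closest, TAL1 was upstream in 3 of 7 cases, against 68% of 2622 elsewhere.

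Of MultiGPS locations, 24 of 29 for GATA1 (82.8%) and 34 of 39 for TAL1 (87.2%) had a peak pair within 100 bp, against 80.5% and 86.2% of the whole lists. Of peak pairs, 56 of 95 for GATA1 (58.9%) and 77 of 118 for TAL1 (65.3%) had a MultiGPS location within 100 bp, against 46.1% and 50.1% of the whole lists. The TAL1 share differed by gene, with 84.6% at Nfe2, 69.6% at Mafk, 66.7% at Nfe2l2 and 53.3% at Bach1. It was 50% at Mafg and at Maff, 22.2% at Bach2 and 0% at Nfe2l1. Nfe2 and Mafk gave 33 and 16 of the 77, so the TAL1 value for the 8 genes mainly reflects these genes. The shares were not tested. Within 100 bp, a final location had a mean of 2.58 GATA1 peak pairs at the 8 genes and 2.13 elsewhere, and 4.18 TAL1 peak pairs at the 8 genes and 3.24 elsewhere. A pair near several locations was counted for each of them. These means therefore rise where locations cluster, as TAL1 locations do at Nfe2 and Mafk.

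Other genes of the network were counted in the same way, from lists set by name. These lists were chosen with earlier results of these data known, so their shares describe the listed genes and were not tested. Of 15 genes known as targets of NF-E2, NRF2 or BACH1, 12 had a GATA1 location (42.7% of all genes did), 13 a TAL1 location (40.3% of all genes) and 12 a cooccupied location (23.6% of all genes). Their medians were 3.0 GATA1 and 6.0 TAL1 locations. Tbxas1, which encodes thromboxane synthase, had 15 GATA1 and 29 TAL1 locations, the beta-globin gene Hbb-b1 had 11 and 25, and the alpha-globin gene Hba-a1 had 4 and 16. The ferritin gene Fth1 had 7 and 13, and Fech, which encodes the last enzyme of heme synthesis, 6 and 16. The ferritin gene Ftl1 had 5 and 8, the iron exporter gene Slc40a1 had 7 and 6, and Blvrb, which encodes a biliverdin reductase, had 3 and 6. Among antioxidant genes, Gclm and Txnrd1 had 3 GATA1 and 2 TAL1 locations each, Gclc had 2 and 1, and Srxn1 had 1 and 1. Hmox1, the heme oxygenase gene repressed by BACH1, and Slc7a11, a cystine transporter gene, had 0 of either. Nqo1, an antioxidant target of NRF2, had 0 GATA1 and 3 TAL1 locations.

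Of 5 genes for the turnover of NRF2, 4 had a GATA1 location, 2 a TAL1 location and 0 a cooccupied one, against 42.7%, 40.3% and 23.6% of all genes. Keap1, the adaptor that holds NRF2 for degradation, had 3 GATA1 and 1 TAL1 locations, and Btrc, another ubiquitin ligase adaptor, had 2 and 7. Cul3, the ligase scaffold, had 2 GATA1 locations and the kinase gene Gsk3b had 1, with 0 TAL1 locations each, and Rbx1 had 0 of either. Among CNC and large Maf relatives, Nfe2l3 had 3 GATA1 and 2 TAL1 locations and Nrl had 1 of each, whereas Maf and Mafa had 0.

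The 3 genes with the most final locations were compared with all protein-coding genes whose windows did not overlap theirs, by the distance between log2(count + 1) over the 6 lists. Closest to Nfe2 were Etf1 (distance 0.20), Phactr4 (0.22) and Wbp4 (0.28). Closest to Mafk were Flot1 (0.08), Fam71b (0.16) and Sema5b (0.22), and closest to Bach1 were Galk2 (0.29), Tmem86a (0.34) and Tubd1 (0.37). The 6 counts of a gene are not independent, since final locations are drawn from the other lists.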

How the data were processed

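ChIP-exo libraries of GATA1 (10) and TAL1 (15) were grouped by their labels. The authors aligned reads to mm9 (the submitters' notes name CASAVA 1.7, bcl2fastq 2.15, Bowtie 1.00, BWA 0.6.2 and BWA 0.7.9a), merged replicates, called peak pairs and MultiGPS locations, and took MultiGPS locations within 100 bp of a peak pair as final. The deposited lists give base positions only, with no count, signal or score. By the study's methods the GATA1 calls came from G1E-ER4 cells, although the label of the GATA1 library from G1E cells names the GATA1 lists too.

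Positions lay within the mm9 chromosome lengths. Genes were the protein-coding genes of GENCODE vM1, with the longest entry per name, so a pseudogene entry named Mafg was left out. Distances followed the study, with under 40 bp for cooccupied, under 500 bp for clusters and 40 bp for motifs. Motifs were exact strings on both strands. Named were all 8 genes, every location where a factor had at most 6, otherwise the closest to a start, the cooccupied ones and the largest TAL1 cluster (for Bach1 all 7), plus genes with closer starts, listed network genes and the 3 most similar genes. A listed gene and a sequence window are not reported here. Members and lists were chosen with earlier results of these data known. Python 3.11.15, numpy 2.4.6, scipy 1.17.1 and matplotlib 3.10.9 were used, and the counting steps were tested on simulated data. Alternatives were other distances, lists, motif forms and gene assignment, and locations with a single WGATAA site.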

Additional observations from a re-analysis of the deposited data

How the results depend on the processing

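No paired analysis was possible because the lists pool libraries and hold no value per replicate, and for the same reason no replicate could be left out. Under the other settings, 23 of the values for the 8 genes together stayed close to the reported ones and 14 moved. A count was called close when it differed from the reported one by a factor of at most 1.5. By this rule 16 GATA1 locations within 10 kb, instead of 24, count as close. Counting gene bodies alone gave 8 GATA1 locations at 3 genes and 10 TAL1 locations at 3 genes. The share of all genes with a location was not counted for gene bodies alone or by closest start. Merged peak pairs gave 73 GATA1 and 80 TAL1 positions. TAL1 locations numbered 67 within 100 kb, and 21 at 4 genes by closest start. Under 20 bp, 4 GATA1 locations were cooccupied. GATA1 locations in clusters numbered 2 under 250 bp and 12 under 1000 bp. TAL1 locations with WGATAA numbered 5 within 20 bp and 21 within 100 bp. Among cooccupied GATA1 locations with a single WGATAA site, an alternative added after seeing the data, TAL1 was upstream in 1 case instead of 3. Of the counts of single genes, 47 moved and 49 did not. A gene can lose all its locations by the choice of window, as Mafk and Maff do by gene body. The read depth behind each location is not in the lists and was not analysed here, so a gene with 0 locations was not shown to be unbound.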
